A study of Mus musculus with 6 samples.

Results

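Replication-dependent histone genes make the H1 linker histones and the H2A, H2B, H3 and H4 core histones that package newly copied DNA. They were compared here between spleens of mice carrying a transferred lymphoma and selected B cells of wild-type spleens. The members were the protein-coding rows of the count table whose gene ID carries a Hist1h, Hist2h, Hist3h or Hist4h symbol, or its current H1f, H2ac, H2bc, H3c or H4c name. There were 67 of them among 56884 rows: 6 H1, 18 H2A, 18 H2B, 12 H3 and 13 H4 genes. The Hist1 cluster on chromosome 13 held 54, in a block of 23 genes at chr13:21899933-22227846 and a block of 31 at chr13:23715220-24118834 in GRCm39 coordinates. The Hist2 cluster on chromosome 3 held 10, the Hist3 cluster on chromosome 11 held 2, and Hist4h4 stands alone on chromosome 6.

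P1 spleens came from 3 recipients at passage 1 of an adoptive transfer of the Eµ-SOX11CCND1 model of mantle cell lymphoma, whose transgenes are named for the immunoglobulin heavy-chain enhancer Eµ, which is active in B-lineage cells. The labels give no cell selection for P1 spleens and do not give the strain or age of the recipients or how many tumour clones were transferred. WT B cells were the selected B cells of spleens from 3 wild-type mice, with BL6 in the column names, and carry neither transgene by their label. P1 libraries are called by their labelled numbers 3, 4 and 5, and WT libraries A, B and C in column order, because the WT columns do not say which mouse they hold.

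In most tissues the mRNA of these genes accumulates in S phase, when DNA is copied, and falls when replication stops. It is unusual among mRNAs in ending, without a poly(A) tail, just after a short stem-loop that is bound by the protein SLBP. Many cluster genes also have longer, polyadenylated forms, which are known from differentiated or resting cells. The labels do not say whether the libraries selected poly(A) RNA or depleted ribosomal RNA, so how well the forms without a tail were sampled is unknown.

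The stem-loops are shown first because they define the ordinary 3′ end of these mRNAs and because the annotated end was compared with the fold changes below. A 16-base element of the known form was found in an annotated transcript of 46 of the 67 members, and 26 of them shared the core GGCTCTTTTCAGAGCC. Capitals mark the 16-base element, written 5′ to 3′ with T for U from GENCODE M21 transcripts, with up to 5 flanking bases on each side.
Hist1h2ab stem-loop: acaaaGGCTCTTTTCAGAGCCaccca
Hist1h2bm stem-loop: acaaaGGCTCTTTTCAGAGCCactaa
Hist3h2a stem-loop: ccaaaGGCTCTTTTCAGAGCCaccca
Hist1h1c stem-loop: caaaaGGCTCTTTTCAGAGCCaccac
Hist1h3c stem-loop: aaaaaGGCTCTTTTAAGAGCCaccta
Hist1h4f stem-loop: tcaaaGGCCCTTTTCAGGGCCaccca
Hist1h4m stem-loop: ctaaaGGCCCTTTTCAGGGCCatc
The annotated transcripts run on for 11 bases after the element in Hist1h2ab and for 1643 bases in Hist3h2a, although both carry the same core. For the other 21 members the element is not in the annotated transcript, among them Hist1h1a and Hist1h1b.

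Promoters of Hist1h1b and Hist1h1c, and of the genes at the ends of the H4 order, are shown next. They are the 130 bases before the start in RefSeq (GRCm38.p6). Capitals mark CCAAT and TATAAA on either strand, plus AAACACA, known from H1 promoters, in the H1 genes and GGTCC, part of an element known from H4 promoters, in the H4 genes. The stretches are chr13:21780626-21780755 on the minus strand for Hist1h1b, chr13:23738677-23738806 on the plus strand for Hist1h1c, chr13:21750554-21750683 on the minus strand for Hist1h4k and chr13:21811616-21811745 on the plus strand for Hist1h4m.
Hist1h1b promoter: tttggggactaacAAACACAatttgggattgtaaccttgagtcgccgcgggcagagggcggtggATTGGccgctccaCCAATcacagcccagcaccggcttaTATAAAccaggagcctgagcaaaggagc
Hist1h1c promoter: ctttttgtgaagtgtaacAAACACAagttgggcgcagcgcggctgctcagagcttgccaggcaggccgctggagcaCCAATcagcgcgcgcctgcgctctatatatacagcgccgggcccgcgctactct
Hist1h4k promoter: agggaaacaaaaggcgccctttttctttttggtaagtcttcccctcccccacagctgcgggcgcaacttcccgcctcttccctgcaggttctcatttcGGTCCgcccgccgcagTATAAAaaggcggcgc
Hist1h4m promoter: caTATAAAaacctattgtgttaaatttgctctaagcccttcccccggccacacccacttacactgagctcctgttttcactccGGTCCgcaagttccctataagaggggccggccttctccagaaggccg
In RefSeq 62 of the 67 members had a promoter. Each motif was searched by itself over the 250 bases before the start on both strands, and overlaps between motifs were not removed. CCAAT was in 51 of 62 (82.3%), against 34.5% of 27025 promoters of all genes. TATAAA was in 29 of 62 (46.8%), against 13.0% of all. AAACACA was in 5 of the 6 H1 promoters, against 6.2% of all promoters. The H1 promoter without it was that of Hist1h1a, the H1 gene with the largest log2 fold change (3.4). GGTCC was in 11 of 12 H4 promoters, against 39.7% of all. CCAAT was in every H1, H2A and H2B promoter matched but in only 3 of 12 H4 promoters. Some H2A and H2B promoters, such as those of Hist1h2ak and Hist1h2bn, overlap on the chromosome, so the same motif site can be counted in both. The motifs did not separate the genes at the ends of the H4 order, since Hist1h4k and Hist1h4m both carry GGTCC and TATAAA within the stretch shown, with TATAAA farther from the start in Hist1h4m.

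Libraries held 7510327 to 10363396 counts in P1 spleens and 12196413 to 14266132 in WT B cells, and levels below are normalised CPM, counts scaled to TMM-adjusted library totals, unless a share of raw counts is named. P1 replicate 4 stands apart: globin genes took 11.7% and the mitochondrial genome 17.4% of its counts, against at most 2.9% and 3.4% in the other P1 libraries, and its TMM factor was 0.578, against 1.086 to 1.184 in the other 5 libraries. The tissue labels were checked on lists of marker genes. Pan-B cell markers summed to 1420, 992 and 2900 CPM in P1 replicates 3, 4 and 5, against 9300, 9370 and 8830 CPM in WT A, B and C. Markers of red cell precursors summed to 6220 to 194000 CPM in P1 spleens and 53.4 to 78.2 CPM in WT B cells, those of neutrophils and their precursors to 995 to 7330 and 2.44 to 9.68 CPM, and those of T cells to 216 to 547 and 10.3 to 18.4 CPM. Of 10 tested markers each, 9 pan-B cell markers were called lower and 10, 10 and 10 of the other lists higher. Every one of these markers was detected in all P1 libraries, and Prtn3 was at 0 in WT B. Of 10 macrophage markers 1 was called higher, as was 1 of 4 tested plasma cell markers. Over all genes tested, 16.9% were called higher and 11.0% lower. Precursors of red cells and of neutrophils divide. Their part in the histone results was not tested. In such bulk samples fewer cells of a type and less RNA per cell cannot be told apart.

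All 5 histone classes were higher in P1 spleens than in WT B cells, and no class overlapped between the groups. The summed members took 0.747%, 0.586% and 0.943% of raw counts in P1 replicates 3, 4 and 5, against 0.269%, 0.344% and 0.28% in WT A, B and C. In summed CPM they reached 8520 ± 1770 in P1 spleens and 2670 ± 440 in WT B cells (SD, n = 3 each), a 3.19-fold ratio of means. An exact permutation test of 3 against 3 libraries cannot give a two-sided p under 0.1, so these sums are given without a p.

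**Figure D1:**
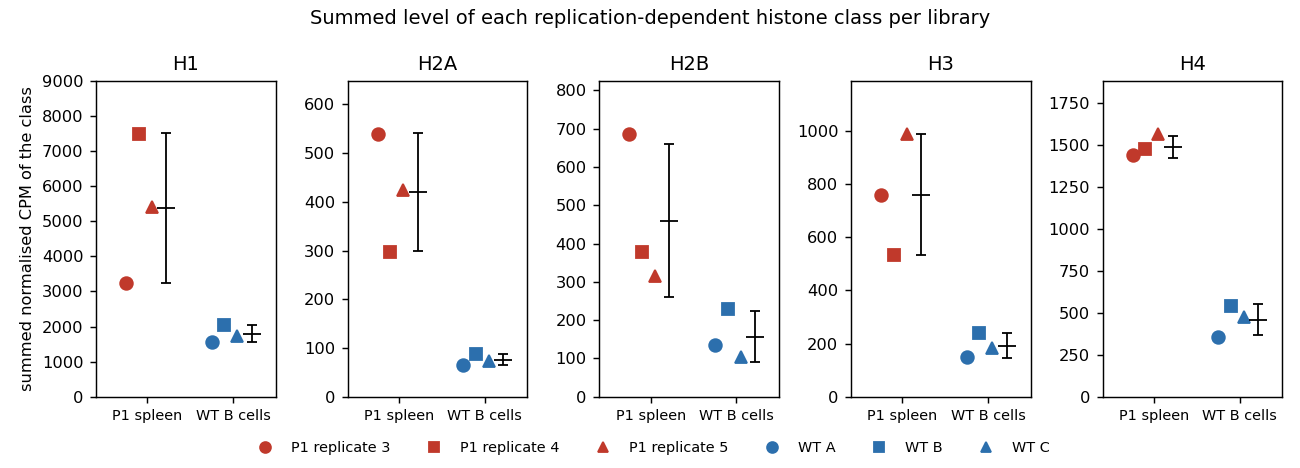
Summed normalised CPM of the members of each histone class (y axes start at 0 and differ between panels) in the 3 P1 spleen libraries (red, left) and the 3 WT B cell libraries (blue, right); the bar beside each group is the mean ± SD of 3 libraries. Every P1 library lies above every WT library in each panel, with the P1 libraries closest together for H4.

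The core classes differed in how much higher they stood. H2A summed to 540, 298 and 425 CPM in P1 replicates 3, 4 and 5, against 65.4, 87.6 and 74.3 CPM in WT A, B and C, a ratio of means of 5.55. H3 summed to 759, 533 and 990 CPM in P1 spleens, against 149, 241 and 185 CPM in WT B cells, a ratio of 3.97. The lowest P1 library was replicate 4 in both classes, and it still stood above the highest WT library, WT B. H4 summed to 1440, 1480 and 1570 CPM in P1 spleens, against 357, 539 and 476 CPM in WT B cells, a ratio of 3.27. H2B summed to 687, 378 and 315 CPM in P1 spleens, against 135, 230 and 104 CPM in WT B cells, a ratio of 2.94. H4 was the most even class across P1 libraries, whereas H2B was uneven in both groups, with P1 replicate 3 and WT B high.

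Summed CPM of linker histone H1 exceeded that of any single core class in every library, and that of the 4 core classes together in all but P1 replicate 3. CPM is not divided by exon length, which ran from 741 to 7425 bases in H1 genes and from 312 to 4446 in core genes. The sums therefore do not rank the classes by number of mRNA molecules. H1 summed to 3240, 7500 and 5420 CPM in P1 replicates 3, 4 and 5, against 1570, 2050 and 1740 CPM in WT A, B and C, a ratio of means of 3.01. The order of the P1 libraries was the reverse of that for H2A, with replicate 4 highest for H1 and lowest for H2A. The ratio of summed core CPM to summed H1 CPM was 1.06, 0.358 and 0.608 in P1 spleens, against 0.449, 0.536 and 0.482 in WT B cells. That ratio overlapped between the groups and varied more within P1 spleens than between the groups. Replicate 4 is also the library high in globin and mitochondrial counts, and the part of these in its H1 level was not tested.

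Of the 67 members, 55 passed the filter on low counts and were tested one by one. A member is called higher or lower at a Benjamini-Hochberg adjusted p under 0.05 in edgeR's quasi-likelihood test, adjusted over all 15462 genes tested. Called higher were 41 of the 55, against 16.9% of all genes tested, and called lower were 0, against 11.0% of all genes. At an unadjusted p under 0.05, 43 were higher, against 22.4% of all genes, and 0 lower, against 17.7%. DESeq2 called 43 of 59 higher, against 17.6% of its 21012 genes, and 0 lower, against 10.4%. The median log2 fold change of the 55 was 2.01, against 0.02 for all genes tested. In 41 of the 55 all P1 libraries stood above all WT libraries, against 22.9% of all genes; Hist3h2ba was called with overlapping groups, and Hist1h2bq was apart without a call (adjusted p = 0.0745).

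**Figure D2:**
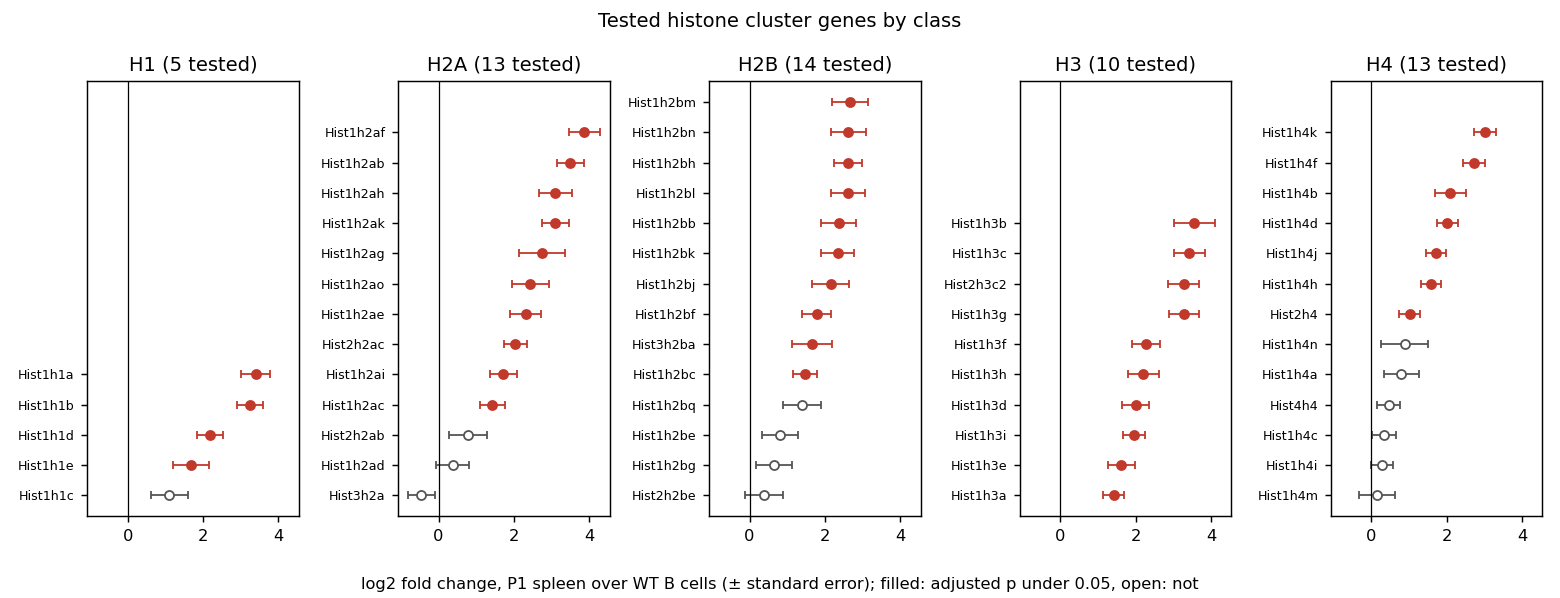
Log2 fold change of P1 spleens over WT B cells (x axis, ± standard error) for the 55 tested members, 1 row per gene, sorted within each class; filled red points have an adjusted p under 0.05 and open grey points do not. All 10 tested H3 genes are filled, the H4 genes spread from 0.14 to 3.01, and Hist3h2a alone lies left of 0.

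The calls depend on what the libraries are scaled to. Scaled so that pan-B cell markers are equal, 55 of 55 members were called higher, but so were 90.9% of all genes, whose median log2 fold change moved to 3.07. Scaled so that 25 S phase genes (replication enzymes and cyclins) are equal, the median of all genes was -1.72 and that of the members 0.26. On that scale 13 members were called higher, against 6.91% of all genes, and 7 lower, against 68.6% of all genes. The S phase genes themselves had 17 of 25 called higher and 0 lower on the ordinary scale, with a median log2 fold change of 1.75. Among them were Ccna2, the cyclin of S phase (3.76 ± 0.29, adjusted p = 0.000376), and Rrm2, a subunit of the enzyme that makes DNA precursors (3.69 ± 0.29, adjusted p = 0.00039). Summed core histone CPM per summed S phase CPM was 1.36, 1.28 and 1.05 in P1 spleens, against 0.82, 1.11 and 0.921 in WT B cells, so P1 replicate 5 lay below WT B.

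Leaving out 1 library at a time kept 31 of the 41 calls in all 6 fits. All of the 10 lost calls were lost without a WT library, 9 of them only then, and Hist3h2ba was lost in 5 of the 6 fits. By class, 3 H1, 7 H2A, 6 H2B, 9 H3 and 6 H4 calls were kept throughout.

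H1 linker histones bind DNA where it enters and leaves the nucleosome. In the H1 class 4 of 5 tested genes were called higher, and the gene left out was the most abundant one. Hist1h1c (now H1f2, chr13:23922791-23924350, GRCm39) had 1260, 3560 and 2360 CPM in P1 replicates 3, 4 and 5, against 864, 1290 and 1180 CPM in WT A, B and C. The groups overlapped at P1 replicate 3, which lay just under WT B, and the log2 fold change was 1.11 ± 0.48 (SE, adjusted p = 0.12). DESeq2 called it higher (1.07, adjusted p = 0.0488), as did the edgeR fit without P1 replicate 3 (1.41, adjusted p = 0.0292).

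Hist1h1b (H1f5, chr13:21964053-21964795) and Hist1h1a (H1f1, chr13:23947649-23948389) encode H1 subtypes known from dividing cells. Hist1h1b had 386, 454 and 731 CPM in P1 spleens, against 55.4, 64.3 and 46.1 CPM in WT B cells, and rose by 3.24 ± 0.35 on the log2 scale (adjusted p = 0.000788). Hist1h1a had 268, 357 and 495 CPM in P1 spleens, against 23.5, 43.6 and 38.7 CPM in WT B cells, and rose by 3.40 ± 0.38 (adjusted p = 0.000799). The lowest P1 library was several times the highest WT library for both genes. Hist1h1d (H1f3) rose by 2.19 ± 0.34 (adjusted p = 0.00255), at 523, 737 and 833 CPM in P1 spleens and 191, 152 and 116 CPM in WT B cells. Hist1h1e (H1f4) rose by 1.69 ± 0.48 (adjusted p = 0.0312), at 797, 2390 and 998 CPM in P1 spleens and 440, 494 and 360 CPM in WT B cells. The Hist1h1e groups did not overlap, but the call was lost without any 1 of the WT libraries (adjusted p = 0.112 to 0.137) and with plain library totals (adjusted p = 0.0677). Hist1h1t, the testis H1, had at most 0.86 CPM in any library and was not tested.

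The make-up of the H1 counts therefore differed between the groups. Hist1h1c took 38.9%, 47.5% and 43.6% of H1 counts in P1 spleens, against 54.9%, 63.2% and 67.8% in WT B cells. Hist1h1b took 11.9%, 6.06% and 13.5% in P1 spleens, against 3.52%, 3.14% and 2.65% in WT B cells. These shares do not depend on the scaling of the libraries, and neither overlapped between the groups. The 95% exact binomial intervals, which cover counting error only, were 47% to 48% for Hist1h1c in P1 replicate 4, its highest P1 share, and 54.3% to 55.5% in WT A, its lowest WT share. The CPM of Hist1h1b per CPM of Hist1h1c was 0.306, 0.128 and 0.309 in P1 spleens, against 0.0641, 0.0497 and 0.0391 in WT B cells. Per kilobase of exon, mean levels in P1 spleens ran from 1530 CPM for Hist1h1c through 722 for Hist1h1e, 705 for Hist1h1b and 504 for Hist1h1a to 94.0 for Hist1h1d, whose annotated exon is much the longest. In WT B cells the same genes had 713, 223, 74.4, 47.6 and 20.6 CPM per kilobase.

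**Figure D3:**
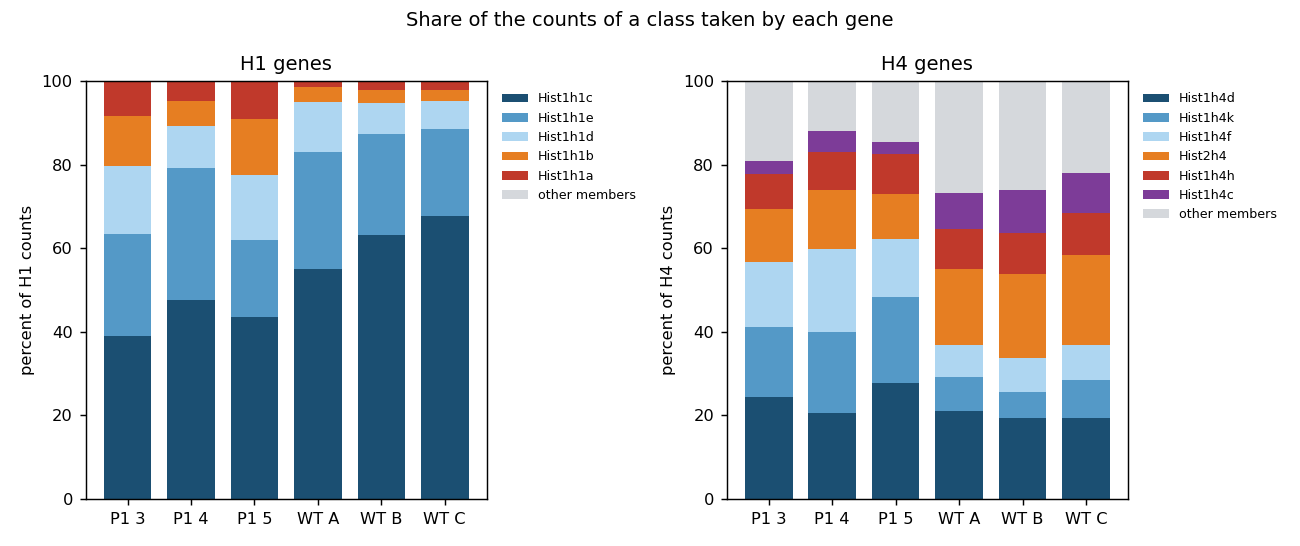
Share of H1 counts (left panel) and of H4 counts (right panel) taken by each gene, in percent of the class's raw counts, with 1 bar per library, P1 replicates 3, 4 and 5 left of WT A, B and C. The dark blue Hist1h1c segment is below 48% in every P1 bar and above 54% in every WT bar, and Hist1h4k fills more of each P1 bar than of any WT bar.

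H2A and H2B form the dimers on the faces of the nucleosome. Of 13 tested H2A genes 10 were called higher, with a median log2 fold change of 2.31. Hist1h2ak (H2ac15), the H2A gene with the highest mean CPM, had 133, 66.4 and 90.9 CPM in P1 replicates 3, 4 and 5, against 8.0, 14.0 and 11.8 CPM in WT A, B and C (3.1 ± 0.36, adjusted p = 0.000905). Hist1h2ab (H2ac4) had 65.2, 50.2 and 78.6 CPM in P1 spleens, against 3.58, 6.42 and 7.26 CPM in WT B cells (3.49 ± 0.36, adjusted p = 0.00066). Both had every P1 library far above every WT library. Hist2h2ac (H2ac20), from the Hist2 cluster, had 66.2, 55.3 and 101 CPM in P1 spleens, against 15.3, 21.6 and 17.5 CPM in WT B cells (2.04 ± 0.31, adjusted p = 0.00231). Hist1h2af (H2ac10) had the largest log2 fold change of all members, 3.87 ± 0.41 (adjusted p = 0.000746), at 83.3, 40.3 and 42.2 CPM in P1 spleens and 2.79, 4.88 and 3.70 CPM in WT B cells. Only 6.0% of its 50-base words are found in no other annotated transcript, so its counts could have been split with near-identical H2A genes.

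Hist3h2a (now H2aw, chr11:58845511-58847656), an H2A gene outside the large clusters, was the single tested member with a negative log2 fold change when all 6 libraries were used with the ordinary scaling. It had 7.65, 5.32 and 5.22 CPM in P1 spleens, against 9.88, 7.90 and 7.41 CPM in WT B cells. P1 replicate 3 overlapped with WT C, and the difference was not called (-0.46 ± 0.36, adjusted p = 0.369). Its share of H2A counts was 1.42%, 1.78% and 1.23% in P1 spleens, against 15.1%, 9.02% and 9.97% in WT B cells, with no overlap. Its log2 fold change was 2.58 (adjusted p = 0.00205) when the pan-B cell markers were set equal and -2.22 (adjusted p = 0.00107) when the S phase genes were, while its share within H2A does not depend on scaling.

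H2B was mixed: 10 of 14 tested genes were called higher, but the most counted pair were not. Hist1h2bg (H2bc8) had 127, 47.0 and 47.8 CPM in P1 replicates 3, 4 and 5, against 42.8, 70.0 and 28.7 CPM in WT A, B and C, and was not called (0.65 ± 0.48, adjusted p = 0.343). Hist1h2be (H2bc6) had 92.0, 51.4 and 28.3 CPM in P1 spleens, against 26.8, 49.4 and 21.5 CPM in WT B cells, and was not called (0.81 ± 0.47, adjusted p = 0.237). In both genes WT B reached above 1 or more P1 libraries. The row of Hist1h2be (chr13:23767653-23805107) overlaps that of Hist1h1e on the same strand. How reads in that overlap were assigned to either gene is not given. Hist1h2bm (H2bc14) had the largest H2B log2 fold change, 2.67 ± 0.47 (adjusted p = 0.00423), at 61.8, 27.8 and 31.1 CPM in P1 spleens and 5.03, 9.95 and 4.01 CPM in WT B cells. Hist1h2bb (H2bc3) rose by 2.36 ± 0.47 (adjusted p = 0.00736), at 85.0, 52.5 and 34.9 CPM in P1 spleens and 9.63, 17.8 and 6.20 CPM in WT B cells. Neither overlapped between the groups.

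Hist1h2bj (H2bc11) had 65.2, 23.4 and 38.4 CPM in P1 spleens, against 9.21, 14.3 and 5.14 CPM in WT B cells, and rose by 2.15 ± 0.49 (adjusted p = 0.0123, but 0.0592 without WT A). Hist2h2be (H2bc21) had 9.98, 5.09 and 3.13 CPM in P1 spleens, against 4.00, 6.10 and 3.86 CPM in WT B cells, with overlap and the smallest H2B log2 fold change (0.39 ± 0.50, adjusted p = 0.601). Without P1 replicate 3 the log2 fold change was -0.21 for Hist2h2be and 0.0 for Hist1h2bg. The share of H2B counts taken by Hist1h2bg was 18.5%, 12.4% and 15.2% in P1 spleens, against 31.6%, 30.4% and 27.7% in WT B cells, so H2B counts were spread over other genes more in P1 spleens than in WT B cells.

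H2A and H2B genes often lie head to head and share the stretch between their starts. By table coordinates 12 such pairs had starts under 1000 bases apart, and in 9 pairs both genes were tested, with 176 to 302 bases between the starts. Both genes were called higher in 5 of the 9 and 1 of the genes in the other 4. The genes of a pair could differ: Hist1h2ae had a log2 fold change of 2.31 and its partner Hist1h2bg 0.65, and Hist2h2ac had 2.04 and its partner Hist2h2be 0.39. In the pair of Hist1h2ad and Hist1h2bf it was the H2B gene that was called (1.78), and the H2A gene was not (0.37). The difference within pairs was not tested.

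H3 and H4 form the core tetramer of the nucleosome. H3 was the class in which all 10 tested genes were called higher, with a median log2 fold change of 2.24. Hist1h3e (H3c6) had 253, 198 and 420 CPM in P1 replicates 3, 4 and 5, against 71.3, 119 and 95 CPM in WT A, B and C, and rose by 1.61 ± 0.36 (adjusted p = 0.0116). The groups did not overlap, but the call was lost without WT A (adjusted p = 0.0736) and without WT C (adjusted p = 0.0563). Hist1h3f (H3c7) had 89.3, 66.9 and 150 CPM in P1 spleens, against 14.8, 26.0 and 22.9 CPM in WT B cells, and rose by 2.27 ± 0.37 (adjusted p = 0.00324). Hist1h3c (H3c3) had 112, 67.8 and 124 CPM in P1 spleens, against 6.91, 14.2 and 7.18 CPM in WT B cells, and rose by 3.42 ± 0.40 (adjusted p = 0.000909). Every P1 library was above every WT library in each of these genes.

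Hist1h3b (H3c2) had the largest H3 log2 fold change, 3.55 ± 0.54 (adjusted p = 0.00239), at 25.8, 11.8 and 11.5 CPM in P1 spleens and 0.848, 2.18 and 1.13 CPM in WT B cells. Hist1h3a (H3c1) had the smallest, 1.41 ± 0.27 (adjusted p = 0.0058), at 79.8, 65.9 and 106 CPM in P1 spleens and 28.1, 36.9 and 29.9 CPM in WT B cells. Neither overlapped between the groups, and the Hist1h3a call was lost with plain library totals (adjusted p = 0.0785). Genes of the H3.1 protein form, Hist1h3a, Hist1h3g, Hist1h3h and Hist1h3i, summed to 240, 160 and 244 CPM in P1 spleens, against 49.6, 71.9 and 52.6 CPM in WT B cells. The other H3 members, of the H3.2 form, summed to 519, 373 and 746 CPM in P1 spleens, against 99.5, 169 and 132 CPM in WT B cells. Ratios of means were 3.70 and 4.09, and whether they differ was not tested.

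H4 was the class with the lowest share of calls, with 7 of 13 tested genes (53.8%) called higher and a median log2 fold change of 1.02, although its genes encode the same protein. Hist1h4d (H4c4) had 352, 304 and 437 CPM in P1 replicates 3, 4 and 5, against 75.4, 104 and 92.4 CPM in WT A, B and C, and rose by 2.01 ± 0.28 (adjusted p = 0.00177). Hist1h4k (H4c12, chr13:21934364-21934675) had 240, 286 and 321 CPM in P1 spleens, against 28.5, 34.2 and 42.6 CPM in WT B cells, and rose by 3.01 ± 0.29 (adjusted p = 0.000579). Hist1h4f (H4c6) had 221, 294 and 217 CPM in P1 spleens, against 27.5, 43.3 and 40.0 CPM in WT B cells, and rose by 2.72 ± 0.29 (adjusted p = 0.000762). All of their P1 libraries lay well above their WT libraries.

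At the other end of the H4 order, Hist1h4m (H4c17, chr13:21995916-21996317) had 27.3, 15.7 and 10.1 CPM in P1 spleens, against 10.5, 26.2 and 11.6 CPM in WT B cells. Its groups overlapped across nearly their whole range (0.14 ± 0.48, adjusted p = 0.856), and the sign turned without P1 replicate 3 (-0.34), without WT A (-0.12) and without WT C (-0.08). Hist1h4c, Hist1h4i, Hist4h4, Hist1h4a and Hist1h4n were not called either, with log2 fold changes of 0.28 to 0.88 and overlapping groups. Hist2h4 (H4c14) had 182, 209 and 169 CPM in P1 spleens, against 65.0, 109 and 103 CPM in WT B cells, and was called with the smallest log2 fold change of any called member (1.02 ± 0.28, adjusted p = 0.0277). That call was lost without any 1 WT library (adjusted p = 0.0824 to 0.153), without the filter on low counts (0.0613) and with plain totals (0.23).

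The H4 genes thus took different parts of the class in the groups. Hist1h4k took 16.7%, 19.3% and 20.5% of H4 counts in P1 spleens, against 7.97%, 6.35% and 8.95% in WT B cells. Hist1h4c took 3.16%, 5.15% and 3.01% in P1 spleens, against 8.70%, 10.3% and 9.63% in WT B cells. Neither share overlapped between the groups. Per kilobase, the mean of Hist1h4k was 904 CPM in P1 spleens and 113 CPM in WT B cells, and that of Hist1h4m 44.0 and 40.1 CPM. Only 28.5% of the 50-base words of Hist1h4k and 10.2% of those of Hist1h4m are found in no other annotated transcript. Their counts could have been split with near-identical H4 genes.

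Called genes lay in both blocks of the largest cluster. In the Hist1 cluster 37 of 47 tested genes were called higher (median log2 fold change 2.15), against 16.9% of all genes tested. Its blocks had 15 of 19 (2.34) and 22 of 28 (2.0). In the Hist2 cluster 3 of 5 were called (1.02), in the Hist3 cluster 1 of 2, and Hist4h4 was not (0.46).

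The annotated 3′ end is a property that did not enter the choice of members. Genes whose transcript ends under 100 bases after the stem-loop had 16 of 19 called higher, against 16.9% of all genes tested. Their median log2 fold change was 2.34. Genes annotated for 100 or more bases beyond the stem-loop had 13 of 21 called and a median of 1.61. Those with no stem-loop in the transcript had 12 of 15 called and a median of 2.61. Of the 14 tested members without a call, 8 were annotated for 100 or more bases beyond the stem-loop, among them Hist1h1c, Hist1h2bg, Hist1h2be, Hist3h2a and Hist4h4. There were exceptions on both sides: Hist1h1d, with 4884 annotated bases beyond the element, rose by 2.19, and Hist1h4m, with 3, did not pass. These counts describe the annotation, not the ends in these libraries, which the count table does not show.

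**Figure D4:**
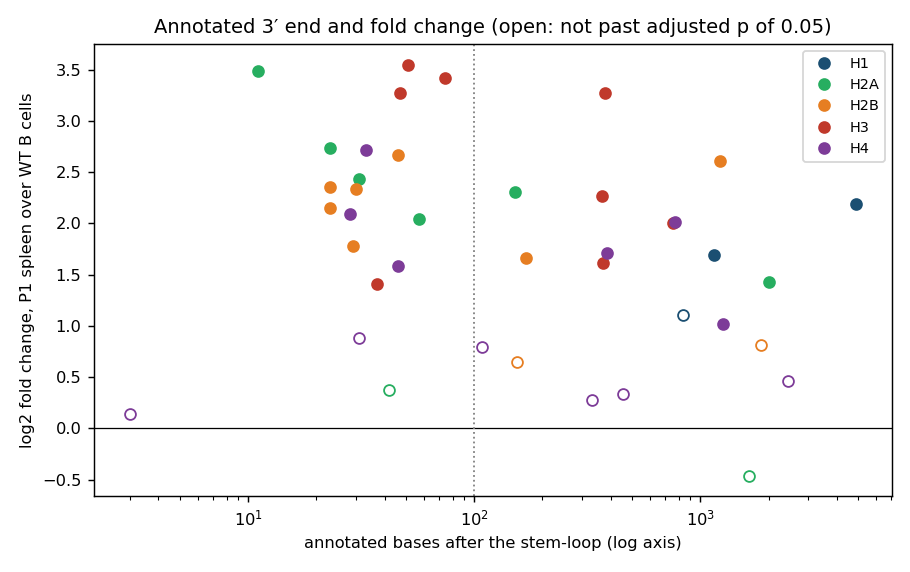
Log2 fold change of P1 spleens over WT B cells (y axis) against the annotated bases after the stem-loop (log x axis) for the tested members with a stem-loop, coloured by class; filled points have an adjusted p under 0.05, open points do not, and the dotted line marks 100 bases. Of 14 tested members without a call, 8 lie as open points right of the line, and called members lie on both sides.

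Sequence shared between copies limits what single members show. Of the tested members with at least 50% of their 50-base words unique, 20 of 29 were called higher (median log2 fold change 1.66). Of those with less, 21 of 26 were called, with a median of 2.27. The share called higher over all genes tested was 16.9%. The split by unique words and that by annotated 3′ end divide the same 55 tested members, and their overlap was not tested. Among the 12 members not tested, 7 were at 0 in every library. Of those 7, Hist2h2aa1, Hist2h2aa2, Hist2h2bb, Hist2h3b and Hist2h3c1 have no unique 50-base word. How reads with several matches were counted is not given, and the part of shared sequence in these 0 counts was not tested. The others, Hist1h2aa and Hist1h2ba, are testis genes with 76.2% and 61.8% unique words. The remaining 5 had at most 58 counts summed over the 6 libraries.

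Many histone variants encoded outside the clusters are made through the cell cycle or in resting cells, mostly from polyadenylated mRNA. How far their levels here follow cell division was not tested. Of 10 tested variants, 5 were called higher, against 16.9% of all genes tested, and 0 lower, against 11.0%. Their median log2 fold change was 1.03. H2afx, which marks DNA breaks when phosphorylated, had 378, 294 and 397 CPM in P1 replicates 3, 4 and 5, against 36.1, 47.6 and 43.2 CPM in WT A, B and C, and rose by 3.08 ± 0.28 (adjusted p = 0.000546). H1f0, a linker histone of differentiating cells including red cell precursors, had 37.8, 178 and 84.2 CPM in P1 spleens, against 6.67, 5.65 and 5.90 CPM in WT B cells, and rose by 4.03 ± 0.55 (adjusted p = 0.00158). H2afz, which marks promoters, rose by 2.02 ± 0.30 (adjusted p = 0.00225), and Cenpa, the H3 of centromeres, by 1.33 ± 0.23 (adjusted p = 0.00359). None of these overlapped between the groups.

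The H3.3 genes, which supply H3 outside replication, ran the other way without a call. H3f3a had 177, 161 and 145 CPM in P1 spleens, against 237, 283 and 262 CPM in WT B cells (-0.70 ± 0.24, adjusted p = 0.0661). H3f3b had 362, 686 and 723 CPM in P1 spleens, against 781, 759 and 1140 CPM in WT B cells (-0.60 ± 0.39, adjusted p = 0.285). The summed cluster H3 CPM per summed H3.3 CPM was 1.41, 0.629 and 1.14 in P1 spleens, against 0.147, 0.232 and 0.132 in WT B cells. The lowest P1 ratio was above the highest WT ratio, and this ratio does not depend on library scaling.

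**Figure D5:**
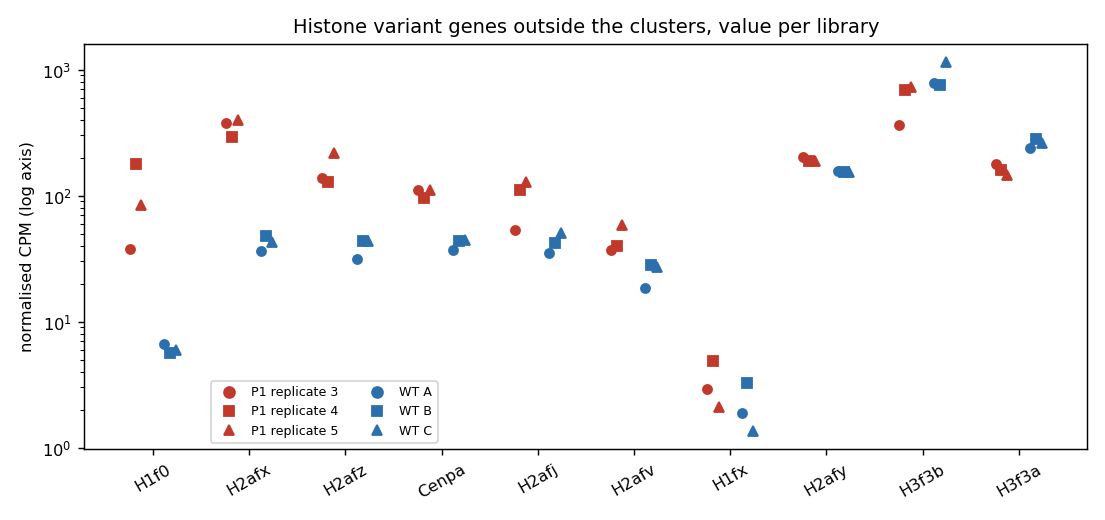
Normalised CPM (log y axis) of the 10 tested histone variant genes outside the clusters, P1 spleen libraries in red left of WT B cell libraries in blue for each gene, ordered by log2 fold change. H1f0 to H2afj are higher in every P1 library, whereas H3f3b and H3f3a lie lower in every P1 library and were not called.

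Genes that transcribe histone genes or process their mRNA had 0 of 19 tested members called higher and 1 lower. Over all genes tested the shares were 16.9% and 11.0%. The log2 fold changes of these 19 genes had a median of 0.21 and ran from -1.48 for Tut4 to 0.97 for Tut7. Slbp, whose protein binds the stem-loop, had 61.3, 47.4 and 51.4 CPM in P1 spleens, against 34.5, 35.3 and 32.7 CPM in WT B cells (0.64 ± 0.23, adjusted p = 0.066), with no overlap and no call. Cpsf3, the cleavage enzyme of pre-mRNA 3′ ends, had 59.9, 33.3 and 63.9 CPM in P1 spleens, against 98.5, 101 and 92.2 CPM in WT B cells (-0.89 ± 0.29, adjusted p = 0.0528), and its partner Cpsf2 a log2 fold change of -1.05 ± 0.36 (adjusted p = 0.0594). Neither overlapped between the groups, and neither was called. Npat, the coactivator of histone gene transcription, had 34.4, 20.8 and 22.0 CPM in P1 spleens, against 22.4, 26.6 and 20.4 CPM in WT B cells (0.16 ± 0.29, adjusted p = 0.726). Tut4, a terminal uridylyltransferase that adds U to RNA ends, was the 1 gene called lower, with 79.6, 88.9 and 53.6 CPM in P1 spleens and 208, 238 and 171 CPM in WT B cells (-1.48 ± 0.29, adjusted p = 0.00632).

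Of 22 tested histone chaperones and deposition factors, 8 were called higher, against 16.9% of all genes tested, and 0 lower, against 11.0%. Their median log2 fold change was 0.32. Chaf1a, the large subunit of the CAF-1 complex that deposits H3 and H4 behind the replication fork, had 85.9, 199 and 149 CPM in P1 spleens, against 12.8, 12.4 and 15.3 CPM in WT B cells (3.42 ± 0.36, adjusted p = 0.000718). Chaf1b, another CAF-1 subunit, rose by 2.42 ± 0.27 (adjusted p = 0.000799), and Mms22l, a replication-linked factor, by 2.09 ± 0.28 (adjusted p = 0.00154). Asf1b rose by 1.88 ± 0.33 (adjusted p = 0.00422), and its paralog Asf1a was not called (0.12 ± 0.33, adjusted p = 0.822). Hira, which deposits H3.3 outside replication, was not called (0.69 ± 0.35, adjusted p = 0.173).

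RNAs outside the histone members that carry no poly(A) tail give a limited view here of how such RNAs were sampled. Of 13 listed, 8 matched a row and 2 passed the filter. Rpph1, the RNA of RNase P, had 28.5, 244 and 63.1 CPM in P1 spleens, against 448, 1340 and 996 CPM in WT B cells (-3.06 ± 0.80, adjusted p = 0.0233). Scarna2, a small nuclear body RNA, had 236, 2740 and 241 CPM in P1 spleens, against 979, 1010 and 1470 CPM in WT B cells (-0.11 ± 0.90, adjusted p = 0.944). Scarna2 was highest in P1 replicate 4, which was also highest for H1, and the other P1 libraries were below all WT libraries. The part of sampling of untailed RNA in the histone results was not tested.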

How the data were processed

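RNA of 3 P1 spleens and 3 samples of selected WT B cells was sequenced, per the labels' protocols, from 50 ng of total RNA (RNeasy) with the NEBNext Ultra Directional kit. The submitters' processing notes name Trim Galore, HISAT2, featureCounts and the GRCm39 build; versions, options, counting strand and the treatment of reads with several matches are not given in the sources used here. The deposited values are raw counts per gene, 1 table for 6 libraries, and each count column was matched to its group by name. The labels name separate mice, but P1 spleens may share 1 transferred tumour, so p-values cover the spread between these samples. Chi-square per degree of freedom was at least 19.48 between replicates, so no library was a plain recount of another. That value cannot show whether libraries share an animal or another source. The column names of WT A and WT B share the tag D4, and that of WT C holds F3. The labels do not explain these tags.

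Genes were filtered with filterByExpr, normalised with TMM and tested with edgeR 4.0.16 (R 4.3.3, quasi-likelihood test, robust, no covariates), adjusted by Benjamini-Hochberg at 0.05 over 15462 genes. DESeq2 1.42.0, no filter, plain totals, scaling to pan-B cell markers or S phase genes, and leaving out each library were alternatives. Leaving out globin and mitochondrial rows was added after seeing the data. ± is the SD for CPM, whereas a log2 fold change carries its standard error. Symbols came from GENCODE M21 by gene ID (51948 rows), current names and promoters from RefSeq, and 50-base words and stem-loops from GENCODE M21 transcripts (GRCm38). Promoter coordinates are GRCm38.p6 and gene coordinates those of the table (GRCm39).

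Members and lists were chosen with earlier results of these data known. Values per library are given, in each class, for the 4 members with the highest mean CPM, the largest and smallest log2 fold change, and all called members of a class with 5 or fewer. From the lists, the 3 smallest adjusted p, the 2 highest mean CPM and 5 or fewer members called lower could be named. Names outside that rule were added as comparators after their values were seen. The list entry Symplk matched no row as spelled, which does not show that the gene is missing from the counts. Left out were 3 histone pseudogene rows.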

Additional observations from a re-analysis of the deposited data

Results flagged for a closer look

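Histone pseudogene rows were left out of the members. Of the 3, 2 had a higher CPM in every P1 library than in any WT library, as did 22.9% of all genes tested. The third, Hist3h2bb-ps, had overlapping groups and was tested without a call (log2 fold change 0.95 ± 0.49, adjusted p = 0.192). Hist1h2aj averaged 0.414 CPM in P1 spleens, with 5, 2 and 3 reads counted in replicates 3, 4 and 5, against 1, 0 and 2 in the WT libraries. Hist1h2al averaged 1.80 CPM in P1 spleens, with 29, 9 and 7 reads counted in replicates 3, 4 and 5, against 4, 9 and 9 in the WT libraries. Both rows were below the filter on low counts and were not tested.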

How the results depend on the processing

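The number of members called higher was 41 and ran from 31 to 42 when 1 library at a time was left out, with 0 called lower in each of those fits. Without P1 replicate 3 the uncalled Hist2h2be (-0.21) and Hist1h4m (-0.34) turned negative, and Hist1h4m was also -0.12 without WT A, -0.08 without WT C and -0.08 with plain totals. It was 33 with plain library totals, 40 without the filter and 41 without globin and mitochondrial rows, again with 0 lower. Over all genes, 1644 to 3206 were called higher and 815 to 2313 lower when 1 library was left out, the lowest counts being those without WT B. Scaling to equal pan-B cell markers gave 14058 genes higher and 96 lower, and turned Hist3h2a to 2.58 on the log2 scale. Scaling to equal S phase genes gave 1068 genes higher and 10609 lower, and 13 members higher and 7 lower. On that scale the log2 fold changes were -1.33 for Hist2h2be, -0.16 for Hist1h3e, -0.35 for Hist1h3a, -0.68 for Hist2h4 and -1.55 for Hist1h4m, all positive with the ordinary scaling. Also negative there were the uncalled Hist1h1c (-0.54), Hist1h2bg (-1.09) and Hist1h2be (-0.88), and Hist3h2a reached -2.22 (adjusted p = 0.00107). These shifts follow from the scaling itself, which moves all genes. The sums of each class kept their direction under plain totals, with tested members alone and with each library left out. No paired analysis was made because the labels name no pairs between P1 recipients and WT mice. Which mouse each WT column holds is also not known. With 3 libraries per group and P1 spleens compared with selected B cells, tissue make-up and disease cannot be told apart.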
